A study of Mus musculus with 12 samples.

Results

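Liver transport genes of the organic anion, organic cation and ABC families were described across 4 groups of 3 mouse livers. The members were all genes whose GENCODE vM1 symbol begins with Slco, Slc22a or Slc10a, which were treated as uptake carriers, or with Abcb, Abcc or Abcg, which were treated as exporters. GENCODE vM1 lists 75 genes with such a symbol, of which 65 had a row in the count table, 11 of those were at 0 in all libraries, and 54 members remained of 28151 genes with counts. They comprised 33 uptake members (12 Slco, 17 Slc22a, 4 Slc10a) and 21 export members (6 Abcb, 9 Abcc, 6 Abcg). The split followed the symbol, so it holds carriers with other roles, such as Slc10a7, Slc22a17 and the mitochondrial Abcb proteins. Among genes without a row were Abcb1b, Abcb4, Abcb6 and Slc22a27 to Slc22a30, which were not analysed here.

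The livers came from C57BL/6 mice of 5 to 7 weeks of age. Wild-type mice were Cre-negative littermates, and RelaΔhepStat3Δhep mice carried a Cre driven by the albumin promoter, which deletes Rela and Stat3 in hepatocytes and leaves both genes in the other cells of the liver. Each genotype was kept on plain water or given 2% dextran sodium sulfate (DSS), which injures the colonic lining and causes acute colitis, in drinking water for 6 days. That gave wild-type untreated, wild-type DSS-treated, RelaΔhepStat3Δhep untreated and RelaΔhepStat3Δhep DSS-treated groups with 3 libraries each, numbered 1 to 3.

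Bile acids, bilirubin, hormones and drugs enter hepatocytes from sinusoidal blood through the sodium-dependent carrier Slc10a1 and the Slco and Slc22a carriers, and leave into the bile canaliculus or back into blood through ATP-driven ABC pumps. The pump Abcb11 moves bile salts and Abcc2 moves bilirubin and other conjugates into bile, while Abcc3 and Abcc4 return conjugates to blood. Nuclear receptors of bile acids and foreign chemicals control many of these genes. In mice several are also known to differ between the sexes under the pattern of growth hormone release.

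Library totals ran from 65879529 to 82850098 estimated counts, and levels are given as CPM, counts relative to library sizes scaled by the TMM method. The counts of the targeted genes did not separate the genotypes: Rela ranged from 39.5 to 62.3 CPM over all 12 libraries, and Stat3 from 43.0 to 74.8 CPM in the libraries labelled RelaΔhepStat3Δhep against 45.7 to 330 CPM in wild-type libraries. Which exons were deleted, and whether counts of a whole gene in whole liver could show it, is not known from the table, and the study characterised the strain by genotyping and western blot. The counts therefore do not check the label, and the group is called labelled knockout below. The methods used mice of both sexes and the labels give no sex. All 3 labelled knockout DSS-treated libraries had Xist, the transcript of the inactive X chromosome, at 903 to 1283 CPM and Y-linked transcripts at 0.0424 to 0.12 CPM. The wild-type untreated library 3 had Xist at 1143 CPM with Y-linked transcripts at 30.1 CPM, so it held both. In the other 8 libraries Xist was at 0.191 to 29.0 CPM and Y-linked transcripts at 175 to 241 CPM. DSS in the labelled knockout, genotype under DSS and the interaction therefore cannot be told apart from sex in these libraries. The wild-type untreated library 3 also enters DSS in wild type and the comparison of untreated genotypes. The wild-type DSS-treated library 2 also stood apart, with the acute-phase transcripts Saa2, Lcn2 and Hp summed to 64670.5 CPM against 1677 and 9216 CPM in the other two of its group, and the smallest TMM factor, 0.758. Some cell markers were high there too. Neutrophil and lymphocyte markers summed to 79.5 CPM against 4.97 and 2.90 CPM in the other two. Kupffer cell markers summed to 831 CPM against 497 and 371 CPM, endothelial markers to 351 against 231 and 159 CPM, and bile duct markers to 21.0 against 12.4 and 12.2 CPM. Stellate cell markers were at 379 against 391 and 294 CPM, and hepatocyte markers were lower, at 78563.6 against 132804 and 80776.4 CPM. None of these markers passed the edgeR test for DSS in wild type, where 0.685% of all genes did. Their part in the transporter values of that library was not tested.

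Promoters are shown for 6 members on which the results turn. Of these, 3 are carriers listed here as known to differ between the sexes in mouse liver (Slc22a26, Slco1a1, Slco1a4). The list is not complete, and whether other members differ between the sexes was not tested. The other 3 are members called lower after DSS that have a single promoter entry (Slc22a3, Slc22a4, Abcb10). Each is the 250 bases before the RefSeq start site on GRCm38.p6, read 5′ to 3′ on the strand of the gene. Capitals mark matches to the STAT motif TTCNNNGAA or to an NF-kB-like motif, GGG and CC with 5 bases of any kind between them, searched on both strands, where N is any base.
Slc22a26 chr19:7802668-7802917 (- strand): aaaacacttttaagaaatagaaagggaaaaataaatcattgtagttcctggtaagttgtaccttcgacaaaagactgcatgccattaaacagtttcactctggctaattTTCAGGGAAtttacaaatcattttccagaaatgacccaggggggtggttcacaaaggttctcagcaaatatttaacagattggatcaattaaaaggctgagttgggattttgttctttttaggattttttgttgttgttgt
Slco1a1 chr6:141946963-141947212 (- strand): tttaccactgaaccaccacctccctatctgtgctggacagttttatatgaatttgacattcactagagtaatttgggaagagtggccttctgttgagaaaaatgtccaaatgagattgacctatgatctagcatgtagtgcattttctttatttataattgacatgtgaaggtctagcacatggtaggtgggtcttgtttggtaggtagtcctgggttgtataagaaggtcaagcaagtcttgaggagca
Slco1a4 chr6:141856221-141856470 (- strand): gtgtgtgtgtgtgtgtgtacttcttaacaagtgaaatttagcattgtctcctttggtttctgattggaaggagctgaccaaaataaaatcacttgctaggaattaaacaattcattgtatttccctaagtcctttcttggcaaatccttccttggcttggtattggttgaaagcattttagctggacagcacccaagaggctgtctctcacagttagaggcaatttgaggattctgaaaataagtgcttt
Slc22a3 chr17:12507705-12507954 (- strand): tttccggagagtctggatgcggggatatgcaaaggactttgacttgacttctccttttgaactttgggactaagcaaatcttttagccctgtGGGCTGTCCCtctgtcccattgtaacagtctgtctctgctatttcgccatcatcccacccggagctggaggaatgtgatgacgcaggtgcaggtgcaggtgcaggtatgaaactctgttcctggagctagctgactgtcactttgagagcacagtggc
Slc22a4 chr11:54028105-54028354 (- strand): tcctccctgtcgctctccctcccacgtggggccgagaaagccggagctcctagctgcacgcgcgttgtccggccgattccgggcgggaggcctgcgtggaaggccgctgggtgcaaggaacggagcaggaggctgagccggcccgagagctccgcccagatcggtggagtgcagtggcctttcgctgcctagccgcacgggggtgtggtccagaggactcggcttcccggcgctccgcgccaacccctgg
Abcb10 chr8:123983123-123983372 (- strand): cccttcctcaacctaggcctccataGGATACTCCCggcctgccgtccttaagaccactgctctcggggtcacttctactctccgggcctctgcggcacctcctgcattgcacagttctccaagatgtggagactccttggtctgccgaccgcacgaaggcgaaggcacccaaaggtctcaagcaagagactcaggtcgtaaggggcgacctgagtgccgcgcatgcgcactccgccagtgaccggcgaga
Slc22a26 held one STAT match, TTCAGGGAA, which began 141 bases before the start. Slc22a3 held one NF-kB-like match, GGGCTGTCCC, which reads as a match on either strand, and Abcb10 held one, GGATACTCCC. The windows of Slco1a1, Slco1a4 and Slc22a4 held neither motif. RefSeq entries matched 41 of the 54 members and gave 51 windows. A STAT match stood in 8 of those 51 windows (15.7%) and in 7.02% of all 32851 windows of this length, and an NF-kB-like match in 29 (56.9%) against 45.8%. Beside Slc22a26 the STAT matches lay before Slco1b2, Slc10a1, Slco1a5, Slco2b1, Slc22a15, Slc22a19 and Abcc5. Abcg2 had 3 entries, of which 2 held an NF-kB-like match, and Abcc1 had none.

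Uptake transcripts were dominated by a few sinusoidal carriers. Per kilobase of exon, mean levels in wild-type untreated liver, from high to low among the carriers described, were those of Slco1b2 (390 ± 100.2 CPM per kilobase, SD, n = 3), Slc10a1 (386 ± 39.7), Slco1a1 (120.3 ± 38.1), Slc22a18 (47.9 ± 6.05), Slco1a4 (45.3 ± 16.7) and Slco2a1 (39.4 ± 14.6). Slco1b2 and Slc10a1 lay within each other's spread, and so did Slco1a4 with each of Slc22a18 and Slco2a1. In the other 3 groups Slc10a1, the sodium-dependent bile acid carrier, came first and Slco1b2, which takes up bilirubin and other organic anions, second. In the labelled knockout DSS-treated group Slc22a26 was at 77.7 ± 15.7 CPM per kilobase, above Slco1a1 at 48.3 ± 19.1. Of the 33 uptake members, 17 reached a mean of 5 CPM in at least one group and 9 reached 100 CPM.

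**Figure D1:**
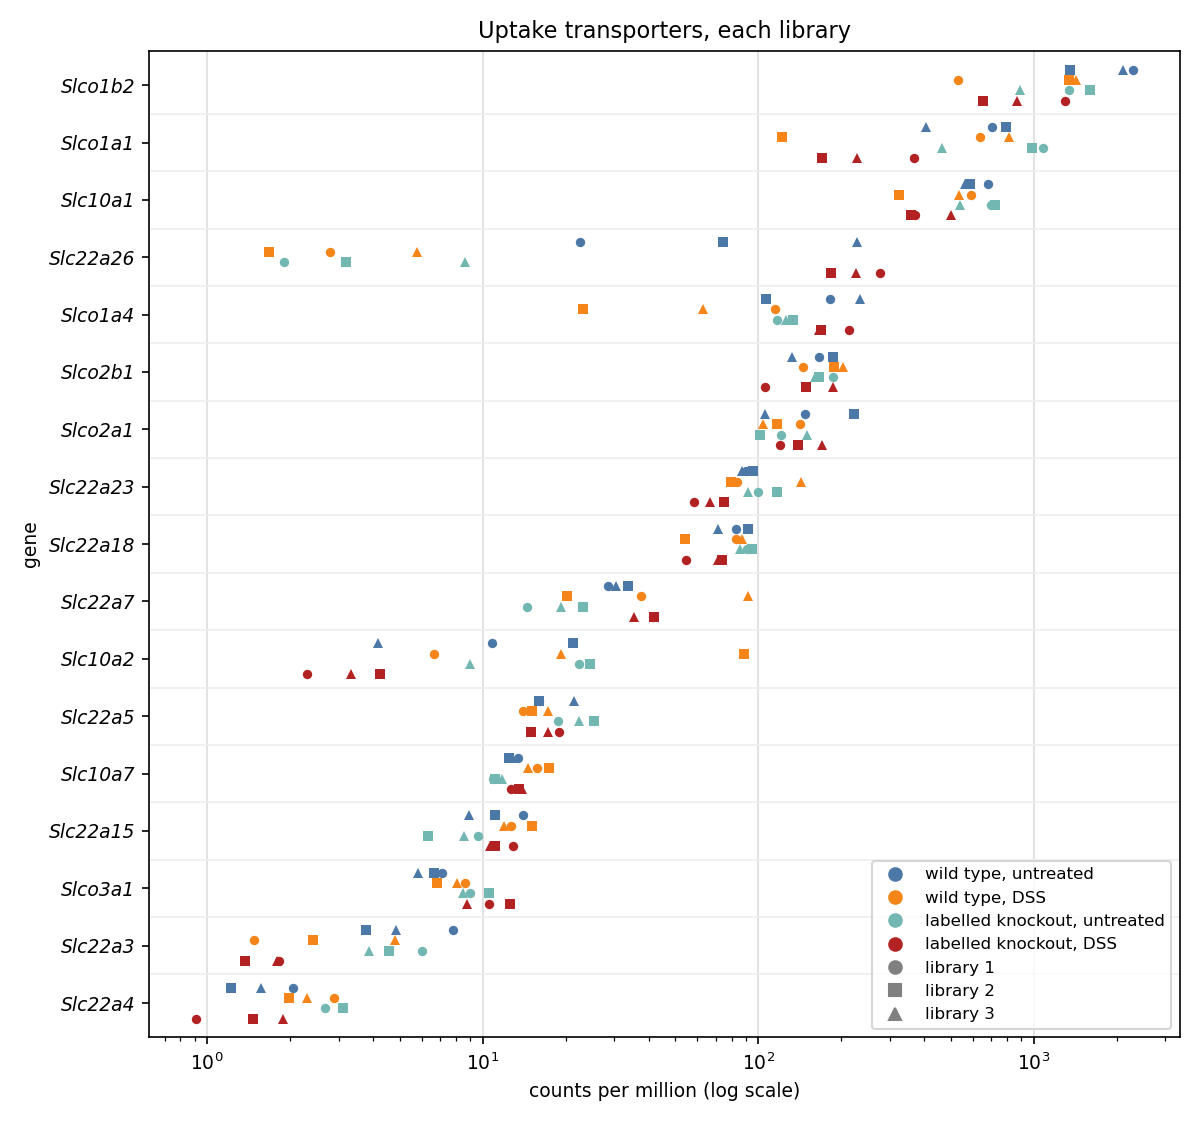
Levels of 17 uptake members in CPM on a log axis, one point per library, coloured by group with marker shape giving the library number. Slc22a26 spans from 1.67 to 277 CPM, the widest spread shown, while Slc10a7 stays between 10.9 and 17.4 CPM.

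Summed over all uptake members, the level was 3939, 4337 and 4727 CPM in the 3 wild-type untreated libraries and 2576, 2585 and 3918 CPM in the wild-type DSS-treated libraries. In the labelled knockout it was 2828, 4150.4 and 4349 CPM without DSS and 2279, 2772 and 3109 CPM with DSS. Both DSS-treated groups had lower means than their untreated counterparts. The wild-type groups did not overlap, and the labelled knockout groups did, through the low untreated library 3. Export members summed to 2286 to 2494 CPM in wild-type untreated, 1329 to 2494 CPM in wild-type DSS-treated, 2243 to 2512 CPM in labelled knockout untreated and 1762 to 2056 CPM in labelled knockout DSS-treated liver. The labelled knockout groups did not overlap for this sum. No test was made of these sums.

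Export transcripts followed one order at the top in all 4 groups. In wild-type untreated liver Abcb11 was at 188 ± 30.7 CPM per kilobase, followed by Abcc2 at 96.7 ± 6.95, Abcc3 at 56.2 ± 7.19 and Abcc6 at 32.1 ± 3.44 (SD, n = 3). Abcb11, Abcc2, Abcc3 and Abcc6 held ranks 1 to 4 in each group, while Abcg5, Abcg8 and Abcg2 changed places below them. Abcb11 made up 35.7 to 44.9% of the export sum per kilobase in wild-type untreated liver, and 22.9% in the wild-type DSS-treated library 2, its lowest share. Of the 21 export members, 18 reached a mean of 5 CPM and 5 reached 100 CPM.

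**Figure D2:**
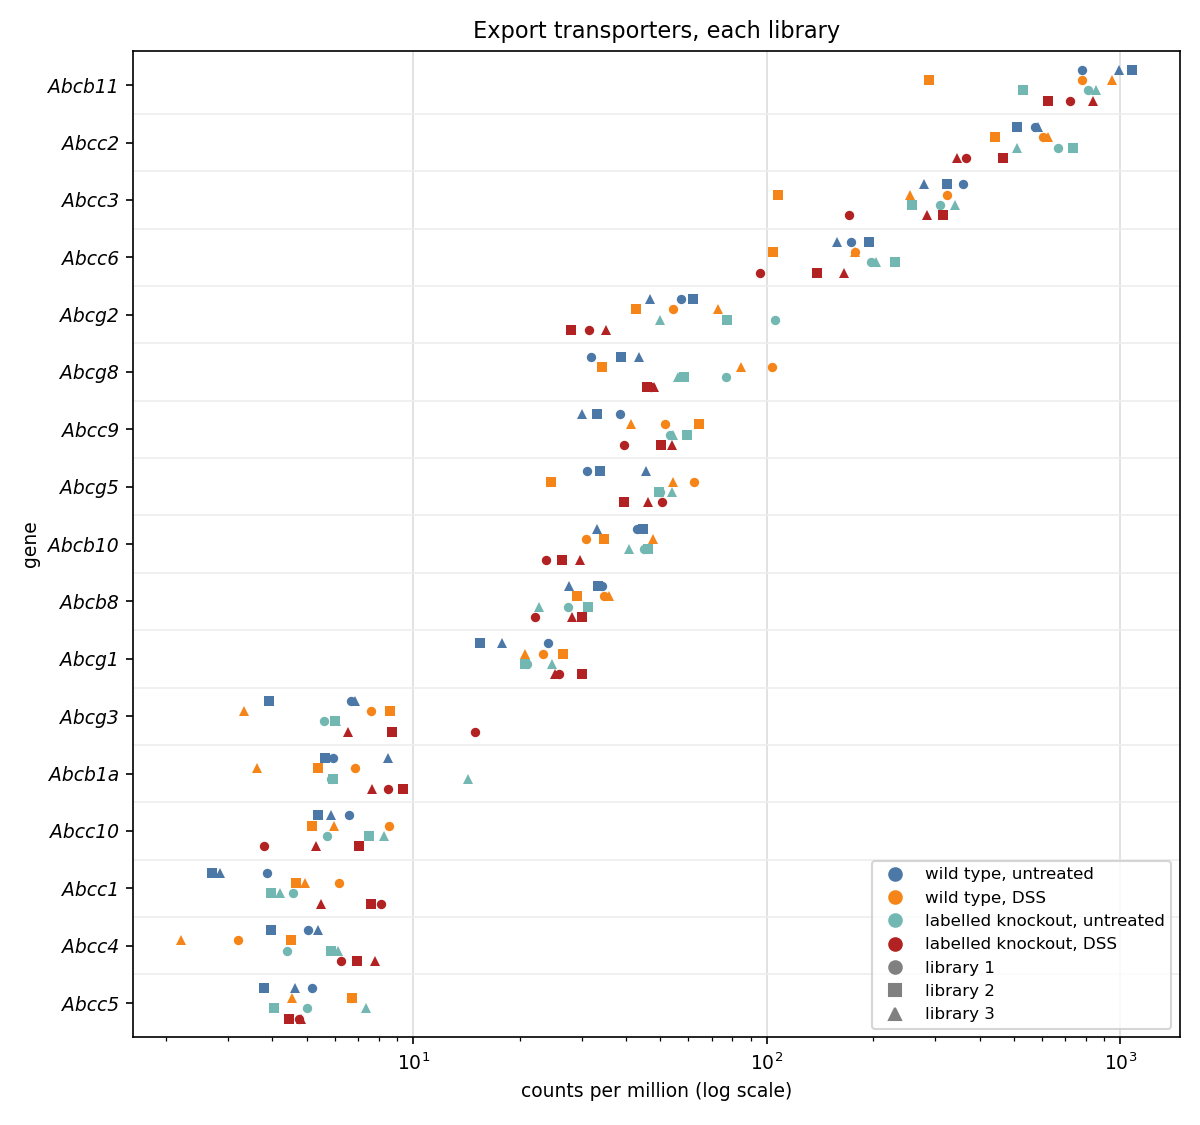
Levels of 17 export members in CPM on a log axis, one point per library, coloured by group with marker shape giving the library number. Abcb11 has one low point, the wild-type DSS-treated library 2 at 289 CPM, and Abcg2 is lowest in the 3 labelled knockout DSS-treated libraries at 28.0 to 35.1 CPM.

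The wild-type DSS-treated library 2 held the lowest value of all 12 libraries for 11 of the 45 members with enough counts to test (24.4%), where it held the lowest value for 13.0% of all genes tested. The labelled knockout DSS-treated library 1 held the lowest for 10 members (22.2%, against 12.5% of all genes). The median coefficient of variation of the tested members was 0.307 in the wild-type DSS-treated group, where it was 0.231 over all genes. In the other 3 groups it was 0.158 to 0.179 for the members and 0.177 to 0.200 over all genes. In whole liver, fewer cells of a type and less RNA per cell cannot be told apart.

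The first comparison asked how DSS colitis moved the transporters in wild-type liver. None of the 45 tested members passed the edgeR quasi-likelihood test at a Benjamini-Hochberg adjusted p under 0.05, where 0.685% of all 17652 genes did. Unadjusted p was under 0.05 for 9 members, against 14.5% of all genes, and the DESeq2 Wald test called 6 (5.98% of genes by that test), namely Abcc1, Abcc9, Abcg8 and Slc10a6 higher and Slc22a26 and Slco1a4 lower. Groups did not overlap for 6 members (13.3%), 4 higher and 2 lower, against 18.7% of all genes, 9.49% higher and 9.21% lower. The median log2 fold change was -0.13 over 25 uptake members and 0.02 over 20 export members, beside 0.02 over all genes.

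Among sinusoidal uptake carriers after DSS in wild-type mice, Slco1b2 was at 2290.2, 1359 and 2111 CPM without and 532, 1345 and 1423 CPM with DSS (log2 fold change -0.80, SE 0.38, edgeR adjusted p = 0.348). Its groups overlapped, since 1 treated library lay above the lowest untreated one. Slc10a1 was at 680.0, 587 and 561 CPM against 591, 323 and 533 CPM (log2 fold change -0.34, SE 0.23, edgeR adjusted p = 0.546). Slco1a4, an organic anion carrier known to be higher in female liver, was at 182, 107 and 235 CPM against 115, 23.1 and 63.2 CPM. It did not pass the test in edgeR (log2 fold change -1.38, SE 0.46, adjusted p = 0.195), and the call by DESeq2 had an adjusted p of 0.0216. Without the wild-type DSS-treated library 1, edgeR gave Slco1a4 a log2 fold change of -2.02 and an adjusted p of 0.0444. It passed in no other fit without one library. Its highest untreated value, 235 CPM, was in library 3, the one with both Xist and Y-linked transcripts. Its male-biased relative Slco1a1 was at 704, 792 and 408 CPM against 637, 122 and 816 CPM, with overlapping groups.

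Slc22a26, a carrier of the organic anion branch of the Slc22 family on chromosome 19, was at 22.6, 74.8 and 227 CPM in wild-type untreated libraries and at 2.78, 1.67 and 5.75 CPM after DSS. The groups did not overlap, and the untreated libraries were far apart among themselves, with the highest in library 3, the one with both Xist and Y-linked transcripts. The difference missed the threshold (log2 fold change -4.99, SE 0.95, edgeR adjusted p = 0.0535). It passed in edgeR without the untreated library 1 (adjusted p = 0.0321) and not without library 3 (log2 fold change -3.84, adjusted p = 0.1000), and the DESeq2 Wald test on all libraries gave an adjusted p of 8.71e-07. Slc10a2, the apical bile acid carrier known from ileum and bile duct cells, was at 10.8, 21.2 and 4.16 CPM without and 6.67, 88.9 and 19.2 CPM with DSS. Its high value was in the acute-phase library 2, as was that of Slc10a6, a carrier of sulfated steroids, at 3.73 CPM against 0.349 and 0.399 CPM in the other treated libraries. The untreated values of Slc10a6 were 0.0395, 0.178 and 0 CPM, and 3 counts, the limit that a count of 0 allows, correspond to 0.0395 to 0.0452 CPM in those libraries.

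None of the 20 tested export members passed the edgeR test in wild-type mice after DSS. The sterol exporter Abcg8 was at 31.9, 38.8 and 43.7 CPM without and at 104, 34.2 and 84.7 CPM with DSS, and its partner Abcg5, encoded next to it in the opposite direction, at 31.1, 33.9 and 45.5 CPM against 62.1, 24.6 and 54.2 CPM. In both genes 2 treated libraries lay above every untreated one and library 2 among or below them. Neither passed in edgeR with all libraries (Abcg8 log2 fold change 0.96, SE 0.30, adjusted p = 0.164), where DESeq2 called Abcg8 (adjusted p = 0.0406). In edgeR Abcg8 passed without the treated library 2 (log2 fold change 1.30, adjusted p = 0.00532), and both passed without that library and the untreated library 3 (Abcg8 1.42, adjusted p = 0.0164; Abcg5 0.84, adjusted p = 0.0411). The ratio of Abcg8 to Abcg5 was 0.96 to 1.15 in untreated and 1.39 to 1.67 in treated wild-type libraries, and 1.04 to 1.54 in untreated and 0.931 to 1.16 in treated labelled knockout libraries, where the groups overlapped. Abcc1, a broad conjugate exporter, was at 3.87, 2.71 and 2.84 CPM against 6.16, 4.65 and 4.95 CPM, with no overlap (log2 fold change 0.74, SE 0.21, edgeR adjusted p = 0.118). Abcc9, the sulfonylurea receptor subunit of a potassium channel, was at 38.4, 33.1 and 30.0 CPM against 51.6, 64.5 and 41.4 CPM, also without overlap (0.63, SE 0.17, edgeR adjusted p = 0.108). The bile salt pump Abcb11 was at 779, 1081 and 992 CPM against 780.1, 289 and 947 CPM (log2 fold change -0.50, SE 0.35, edgeR adjusted p = 0.551), and Abcc3 had its low value, 108 CPM, in the same treated library 2.

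DSS in the labelled knockout gave more calls. Of 45 tested members, 6 passed the edgeR test (13.3%), 2 higher and 4 lower, where 7.02% of all genes passed, 4.57% higher and 2.46% lower. The called members were 3 of 25 uptake members (Slc22a26 rose, Slc22a3 and Slc22a4 fell) and 3 of 20 export members (Abcc1 rose, Abcg2 and Abcb10 fell). Unadjusted p was under 0.05 for 16 members, and for 24.1% of all genes. Groups did not overlap for 25 members (9 higher, 16 lower), against 31.8% of all genes, 17.8% higher and 14% lower. The median log2 fold change was -0.45 over uptake and -0.22 over export members, beside -0.01 over all genes, and 32 of the 45 estimates were below 0. DESeq2 called 13 members (15.6% of genes by that test), with Abcc2, Abcc6, Slc10a1, Slc10a2, Slc22a23 and Slco1a1 lower and Slc22a7 higher in addition. With the share of Y-linked transcripts as a covariate none of the 6 calls remained, and over all genes the calls went from 1240 to 6. That share was near 0 in all 3 labelled knockout DSS-treated libraries and outside them was low in wild-type untreated library 3 alone, so the covariate nearly replaced the group, and the standard errors of the members were 1.81 times as large. The log2 fold changes in that fit were 1.03 for Abcc1, -0.94 for Slc22a4, -1.06 for Slc22a3, -0.89 for Abcg2, -0.36 for Abcb10 and 2.69 for Slc22a26, with edgeR adjusted p from 0.302 to 0.667.

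**Figure D3:**
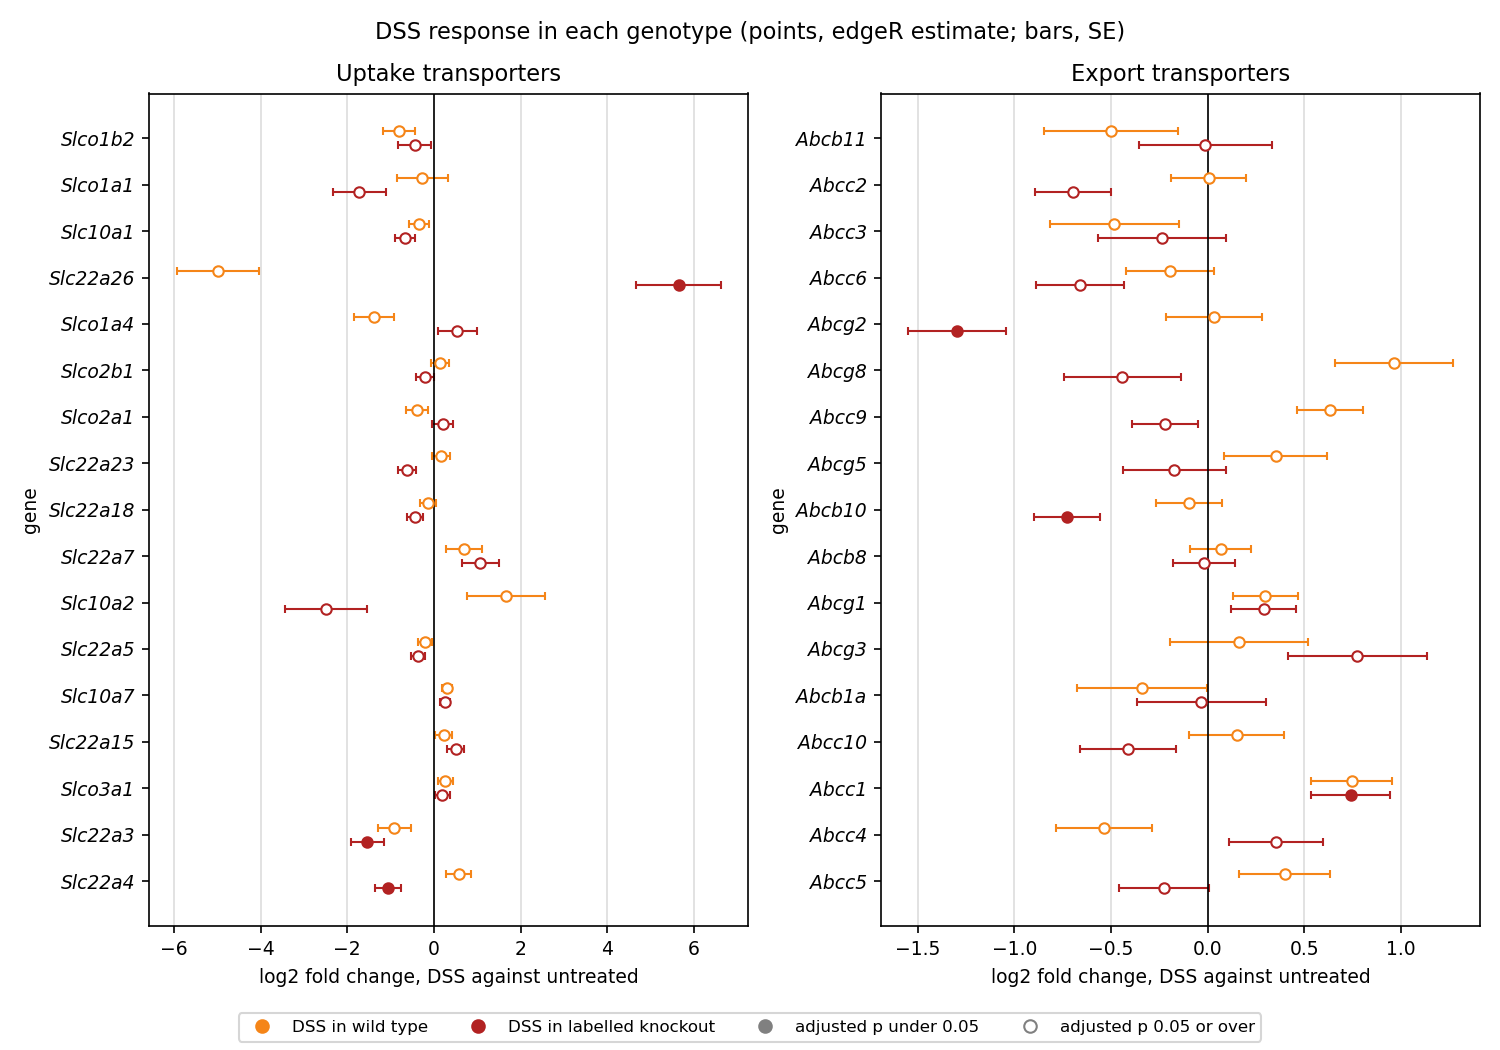
Log2 fold change of DSS-treated against untreated liver for 17 uptake (left) and 17 export (right) members in wild type and labelled knockout, with bars of 1 SE and filled points where the edgeR adjusted p was under 0.05. All 6 filled points belong to the labelled knockout, and Slc22a26 lies at -4.99 in wild type and 5.65 in labelled knockout.

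Slc22a26 rose from 1.90, 3.19 and 8.64 CPM to 277, 184 and 227 CPM after DSS in the labelled knockout (log2 fold change 5.65, SE 0.97, edgeR adjusted p = 0.0123). The treated libraries were all above the untreated ones and close together, and they were the 3 libraries with Xist and without Y-linked transcripts. The call was kept when 11 of the 12 libraries were left out in turn, and lost without the untreated library 2 (adjusted p = 0.0676). The gene (ENSMUSG00000053303, chr19:7855531-7877157 on the minus strand in mm9) lies in a cluster of close copies, and reads shared with copies that have no row could have been split or merged by the counting.

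All 5 tested organic cation and carnitine carriers had estimates below 0, and 2 of them passed the edgeR test, where 2.46% of all genes were called lower. Slc22a3, which moves monoamines and other organic cations, was at 6.02, 4.57 and 3.87 CPM without and 1.83, 1.38 and 1.79 CPM with DSS (log2 fold change -1.53, SE 0.39, edgeR adjusted p = 0.0336). Slc22a4, a carrier of ergothioneine, was at 2.68, 3.12 and 3.10 CPM against 0.913, 1.47 and 1.88 CPM (-1.06, SE 0.29, edgeR adjusted p = 0.0479). Neither pair of groups overlapped, and both genes were at low levels throughout. The carnitine carrier Slc22a5 was at 18.8, 25.4 and 22.3 CPM against 18.9, 15.0 and 17.3 CPM, with overlap.

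None of the 6 sinusoidal uptake carriers passed the edgeR test in the labelled knockout, where 7.02% of all genes did. DESeq2 called 3 of them (15.6% of genes by that test), Slc10a1 and Slco1a1 lower and Slc22a7 higher. Slc10a1 was at 699, 725 and 538 CPM without and 370.2, 358 and 499.6 CPM with DSS, without overlap (log2 fold change -0.68, SE 0.23, edgeR adjusted p = 0.0948, DESeq2 adjusted p = 0.0189). Slco1a1, known to be higher in male liver, was at 1077, 985 and 463 CPM against 367, 170 and 229 CPM (log2 fold change -1.72, SE 0.60, edgeR adjusted p = 0.113, DESeq2 adjusted p = 0.0154). Slco1a4 was higher in every treated library, at 117, 133 and 126 CPM against 213, 168 and 166 CPM (0.54, SE 0.45, edgeR adjusted p = 0.509). Treated and untreated libraries did not overlap for either gene. The ratio of Slco1a1 to Slco1a4 was 1.01 to 1.72 in labelled knockout DSS-treated libraries and 1.74 in the wild-type untreated library 3, and 3.67 to 12.9 in the other 8 libraries. Slc22a7, which takes up organic anions and nucleotides, was at 14.4, 23.1 and 19.2 CPM against 41.6, 41.8 and 35.4 CPM (1.07, SE 0.42, edgeR adjusted p = 0.152, DESeq2 adjusted p = 0.0480). Slc10a2 was at 22.3, 24.4 and 8.96 CPM against 2.31, 4.25 and 3.33 CPM (-2.49, SE 0.94, edgeR adjusted p = 0.143, DESeq2 adjusted p = 0.0282).

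Among canalicular exporters Abcg2, which pumps urate, porphyrins and drugs, fell from 106, 77.1 and 50.01 CPM to 31.5, 28.0 and 35.1 CPM (log2 fold change -1.30, SE 0.25, edgeR adjusted p = 0.0118). Every treated library was below every untreated one and below all 6 wild-type libraries, which lay between 42.6 and 72.7 CPM. These treated libraries were those with Xist and without Y-linked transcripts. When libraries were left out in turn, the call was lost without the untreated library 2 (adjusted p = 0.0501) and kept in the other 11 fits. All 6 tested canalicular exporters had estimates below 0. Of these 1 passed the edgeR test, Abcg2, where 2.46% of all genes were called lower. DESeq2 called 2, Abcg2 and Abcc2 (15.6% of genes by that test). Abcc2, the conjugate pump, was at 668, 735 and 509 CPM against 365, 467 and 346 CPM, without overlap, and missed the edgeR threshold (-0.70, SE 0.20, adjusted p = 0.0507, DESeq2 adjusted p = 0.00265). Abcb11 was nearly level in estimate, at 810.4, 532 and 854 CPM against 719, 624 and 836 CPM (-0.01, SE 0.35, edgeR adjusted p = 0.989). Abcg8 was at 76.9, 58.3 and 56.1 CPM against 47.1, 45.8 and 48.0 CPM, without overlap (-0.44, edgeR adjusted p = 0.407).

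Among the other exporters Abcb10, a transporter of the mitochondrial inner membrane, fell from 45.0, 46.3 and 40.8 CPM to 23.8, 26.4 and 29.6 CPM (log2 fold change -0.73, SE 0.17, edgeR adjusted p = 0.0257). The mitochondrial relative Abcb8 had an estimate of -0.02 and overlapping groups. Abcc1 rose from 4.56, 3.96 and 4.20 CPM to 8.13, 7.61 and 5.48 CPM (0.74, SE 0.21, edgeR adjusted p = 0.0491), the same estimate as in wild type. Of 5 tested basolateral exporters, 1 passed the edgeR test, Abcc1, where 7.02% of all genes did. DESeq2 called 2 of the 5, Abcc1 and Abcc6 (15.6% of genes by that test). Abcc6 was at 198, 231 and 203 CPM against 95.5, 139 and 165 CPM (-0.66, SE 0.23, edgeR adjusted p = 0.097, DESeq2 adjusted p = 0.0300). Of the 6 calls in this comparison, Abcc1, Slc22a4, Slc22a3 and Abcb10 were lost in 8, 8, 6 and 5 of the 12 fits without one library. Leaving out each of the labelled knockout untreated libraries ended all 4 of these calls.

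**Figure D4:**
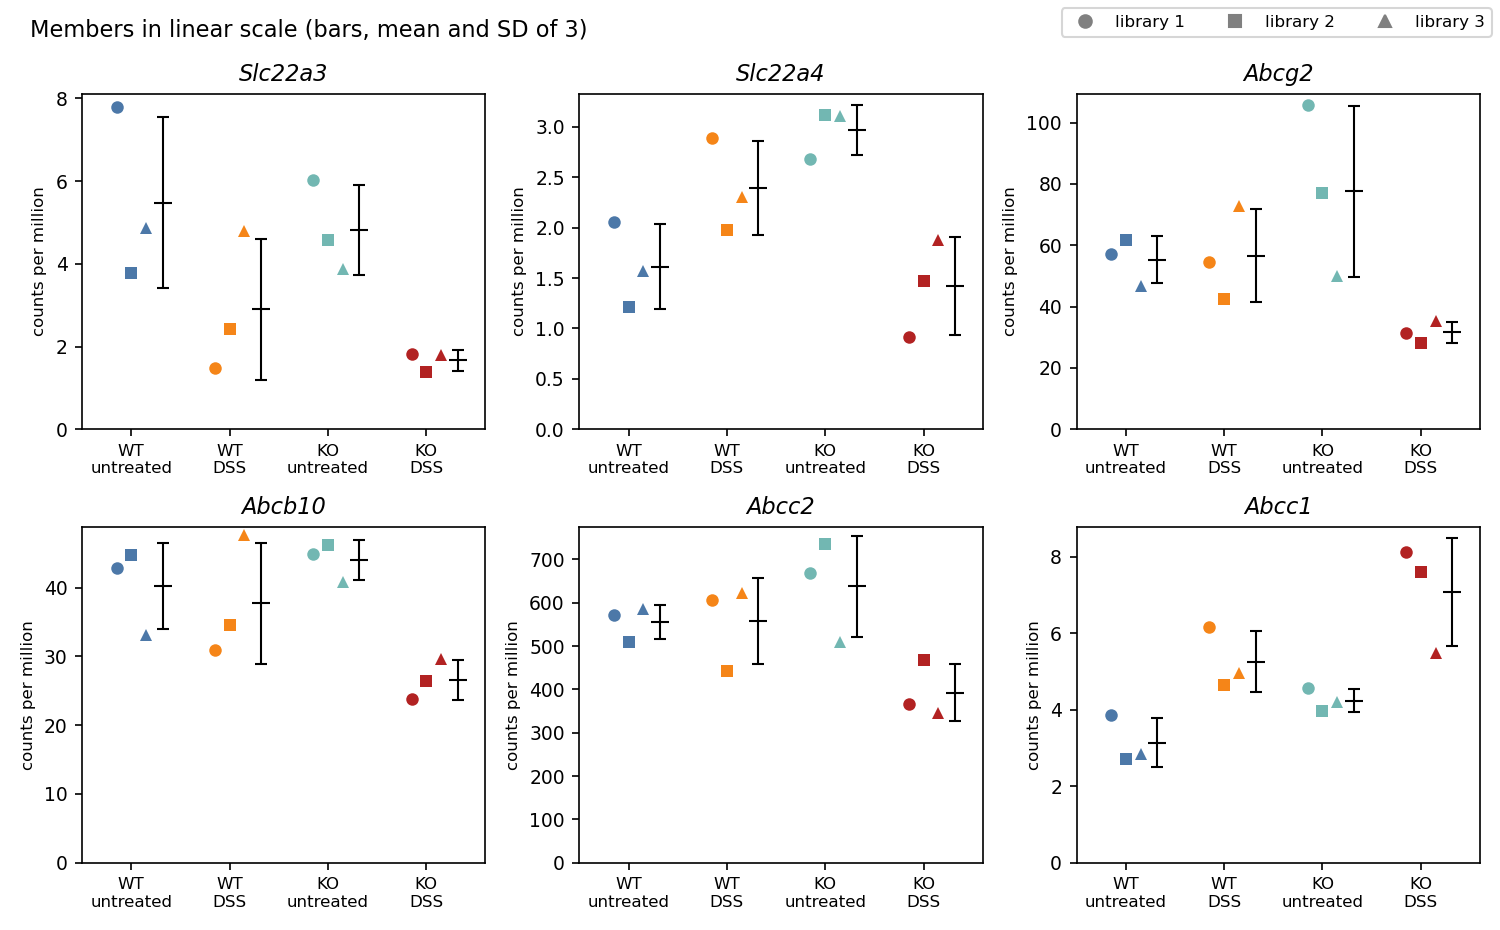
Levels in CPM of 6 members in each library (points) with the mean and SD of 3 libraries (bars), for wild type (WT) and labelled knockout (KO). The labelled knockout DSS-treated libraries lie below their untreated group for Slc22a3, Slc22a4, Abcg2, Abcb10 and Abcc2 and above it for Abcc1.

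In the same comparison the Kupffer cell markers moved too. All 6 listed markers had estimates above 0 and 5 passed the edgeR test, where 4.57% of all genes were called higher. Their summed level was 277 to 307 CPM without and 565 to 920 CPM with DSS. The hepatocyte marker sum was 123553 to 136052 CPM against 127644 to 166094 CPM. Of the 5 hepatocyte markers 1 fell, where 2.46% of all genes were called lower. Of the 5, 3 had estimates below 0 and the median log2 fold change was -0.25. Of the stellate cell markers 1 of 5 rose, while 0 of 5 endothelial, 0 of 4 bile duct and 0 of 4 neutrophil and lymphocyte markers passed. Over all genes 7.02% passed in either direction. The neutrophil and lymphocyte markers all had estimates above 0 (median log2 fold change 2.92), and their sum was 1.63 to 1.73 CPM without and 6.82 to 23.4 CPM with DSS, without overlap. Markers of kidney tubule, where many Slc22a carriers are known to be abundant, summed to at most 1.10 CPM in any library. Whether these cell markers have a part in the transporter values was not tested.

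Genotypes were then compared without DSS. None of the 45 members passed the edgeR test, where 0.0623% of all genes did, 0.034% higher and 0.0283% lower. Unadjusted p was under 0.05 for 6 members, against 11.7% of all genes, and DESeq2 called 2 (2.29% of genes by that test), Abcc9 higher and Slc22a26 lower in the labelled knockout. Groups did not overlap for 11 members, 8 higher and 3 lower (24.4%, against 20.2% of all genes, 9.56% higher and 10.7% lower). The values were 38.4, 33.1 and 30.0 CPM in wild type and 53.4, 59.4 and 54.4 CPM in the labelled knockout for Abcc9 (log2 fold change 0.72, SE 0.17, edgeR adjusted p = 0.142). Slc22a26 was lower in every labelled knockout library, by -4.56 on the log2 scale (SE 0.93, edgeR adjusted p = 0.135), and by -3.41 without the wild-type untreated library 3 (adjusted p = 0.227). Slco3a1, an organic anion carrier of wide tissue distribution, was at 7.10, 6.66 and 5.81 CPM against 8.99, 10.5 and 8.48 CPM (0.52, SE 0.17, edgeR adjusted p = 0.289). Median log2 fold changes were 0.08 for uptake and 0.20 for export members, beside 0.00 for all genes.

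Under DSS 1 of 45 members differed between the genotypes in edgeR (2.22%, against 0.334% of all genes, 0.187% higher and 0.147% lower). Slc22a26 was at 2.78, 1.67 and 5.75 CPM in wild-type and 277, 184 and 227 CPM in labelled knockout libraries (log2 fold change 6.07, SE 1.00, edgeR adjusted p = 0.0481). This call was lost in 10 of the 12 fits that left out one library, with adjusted p up to 0.141. DESeq2 called 5 members (4.45% of genes by that test), with Slco1a4 and Abcc4 higher and Slc10a2 and Abcg2 lower in addition. Abcc4, which returns bile acids and conjugates to blood, was at 3.20, 4.51 and 2.204 CPM against 6.25, 6.92 and 7.78 CPM, with no overlap (1.08, SE 0.25, edgeR adjusted p = 0.0936). Abcg2 was at 54.4, 42.6 and 72.7 CPM against 31.5, 28.0 and 35.1 CPM, again without overlap (-0.84, SE 0.25, edgeR adjusted p = 0.173). Groups did not overlap for 11 members, 5 higher and 6 lower, against 16.8% of all genes, 8.8% higher and 7.98% lower. Median log2 fold changes were -0.25 for uptake and -0.17 for export members, beside -0.00 for all genes.

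The last comparison set the log2 fold change after DSS in the labelled knockout against that in wild type. It passed for 1 of 45 members (2.22%, against 0.408% of all genes, 0.244% higher), Slc22a26, whose response was -4.99 in wild type and 5.65 in the labelled knockout, a difference of 10.64 (SE 1.36, edgeR adjusted p = 0.0150). The order of its 12 values followed the sex-linked transcripts in part. All 4 libraries with Xist of 903 CPM or more had Slc22a26 at 184 CPM or more, and the other 8 were at 74.8 CPM or less. Within those 8, the 2 wild-type untreated libraries, at 22.6 and 74.8 CPM, were above the 6 others, at 1.67 to 8.64 CPM. With the share of Y-linked transcripts as a covariate the difference was 6.27 (adjusted p = 0.293), and without the wild-type untreated library 3 it was 9.48 (adjusted p = 0.0136). The call was lost in 2 of the 12 fits without one library, those without the labelled knockout untreated library 2 (adjusted p = 0.0740) and without the labelled knockout DSS-treated library 1 (adjusted p = 0.0534). DESeq2 called 7 members in this comparison (4.52% of genes by that test), with Slco1a4 higher and Abcc9, Abcg2, Abcg8, Slc10a2 and Slc22a4 lower in addition.

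**Figure D5:**
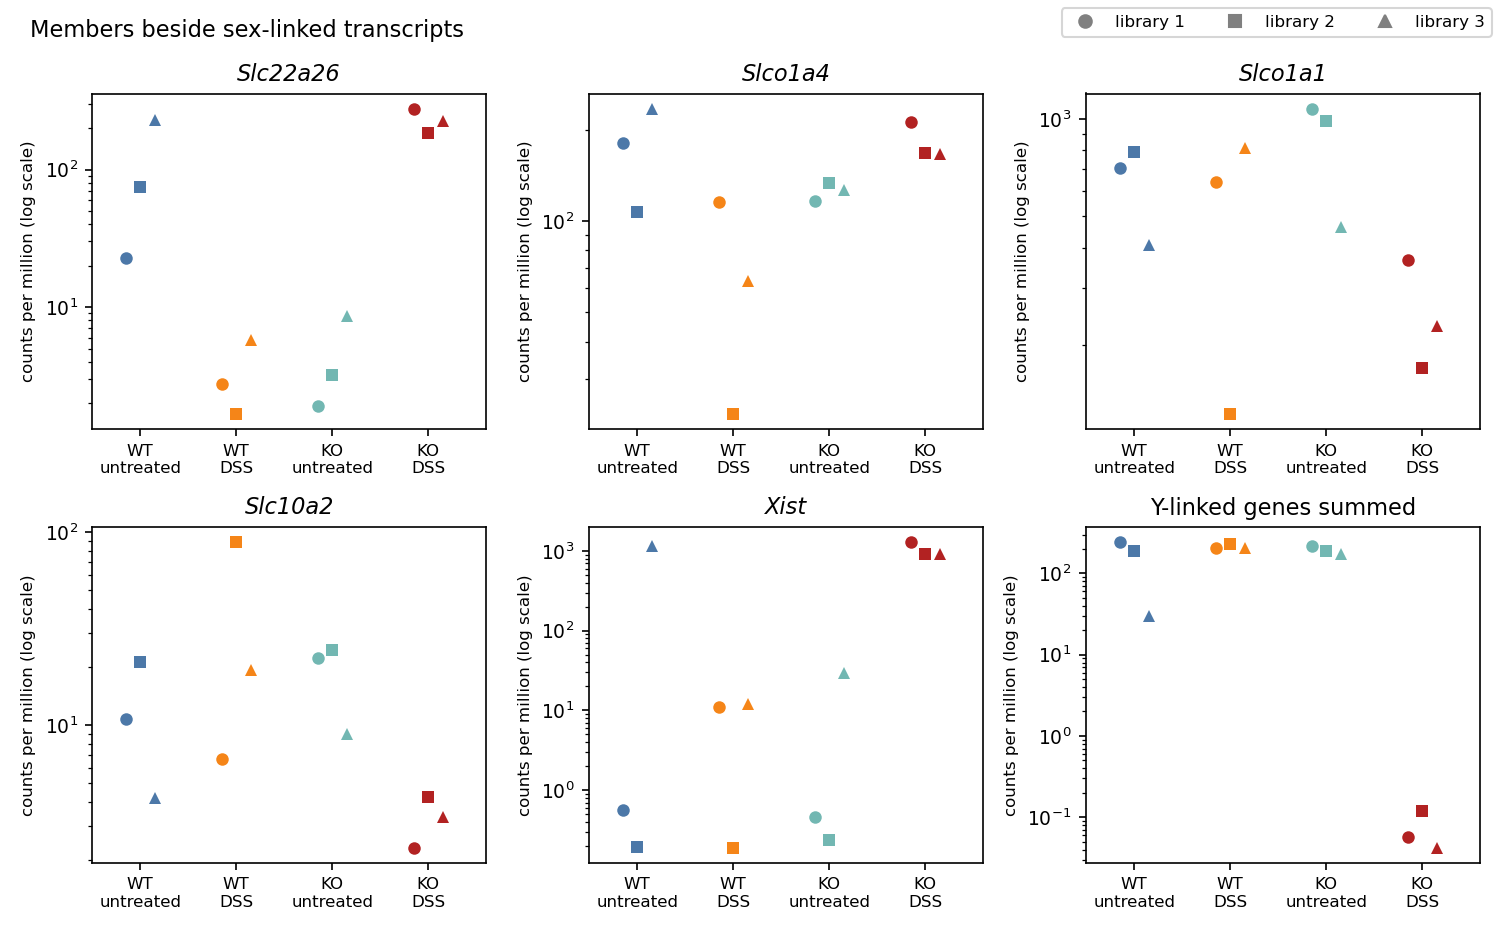
Levels in CPM on log axes of 4 uptake members, of Xist and of the sum of 4 Y-linked genes in each library, for wild type (WT) and labelled knockout (KO). The 4 libraries with Xist of 903 CPM or more are the 4 highest for Slc22a26, and 3 of them have the lowest Y-linked sums, at 0.12 CPM or less.

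For Abcg2 the response to DSS was 0.03 in wild type and -1.30 in the labelled knockout, a difference that did not pass in edgeR (-1.33, SE 0.35, adjusted p = 0.113). For Abcg8 the responses were 0.96 and -0.44 (difference -1.40, SE 0.43, edgeR adjusted p = 0.162), and the difference passed without the wild-type DSS-treated library 2 (-1.76, adjusted p = 0.0100). For Slc22a4 they were 0.57 and -1.06 (difference -1.63, SE 0.41, edgeR adjusted p = 0.106). Abcc1 had the same response of 0.74 in both genotypes. The 2 response estimates share no libraries, and a p-value over the threshold does not show that the genotypes responded alike.

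Genes that act on or beside these transporters were read from a fixed list. Of 14 regulators tested, 4 passed the edgeR test after DSS in the labelled knockout, all lower (2.46% of all genes were called lower there), and 0 passed in wild type, where 0.685% of all genes did. They were the bile acid receptor Nr1h4 (-0.71, SE 0.19, adjusted p = 0.03999), the xenobiotic receptor Nr1i3 (-0.99, SE 0.19, adjusted p = 0.0116), the fatty acid receptor Ppara (-0.93, SE 0.19, adjusted p = 0.0145) and the hepatocyte factor Hnf4a (-0.70, SE 0.18, adjusted p = 0.0325), each a log2 fold change from edgeR. The xenobiotic receptor Nr1i2 and the oxidative stress factor Nfe2l2 did not pass in either genotype. Of 7 other transport genes 1 fell in the labelled knockout, Slc27a5, which activates bile acids for conjugation (-0.73, SE 0.20, edgeR adjusted p = 0.0487). Of 7 tested genes of the growth hormone axis 1 fell in the labelled knockout, and 2 of the 7 estimates were above 0. The called gene, the growth hormone receptor Ghr, was at 925, 867 and 739 CPM without and 439, 372 and 410.0 CPM with DSS in the labelled knockout (-1.05, SE 0.18, edgeR adjusted p = 0.00633). In wild type it was at 779, 804 and 714 CPM against 449, 390.1 and 577 CPM (-0.70, SE 0.18, edgeR adjusted p = 0.0896). Of 6 enzymes known to respond to drugs and chemicals, Nqo1 rose in the labelled knockout (1.28, SE 0.26, edgeR adjusted p = 0.0146), and Cyp2b10 (-3.66, SE 0.65, edgeR adjusted p = 0.0375) and Cyp1a1 (-1.53, SE 0.30, edgeR adjusted p = 0.0361) fell in wild type.

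The other 18 members are given by range. They comprised 15 uptake and 3 export members, and 9 of the 18 had too few counts to test, with no group mean above 0.215 CPM. The 9 tested ones included Abcb9, a lysosomal peptide transporter, at 1.21 to 3.50 CPM over all libraries, Slc22a21 at 0.431 to 1.37 CPM, Slco1a5 at 0.0318 to 0.718 CPM and Slc22a19, from the same cluster as Slc22a26, at 0 to 0.241 CPM. None of the 9 passed the edgeR test in any of the 5 comparisons, and the smallest adjusted p was 0.0999, for Slc10a6 after DSS in wild type.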

How the data were processed

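Liver RNA was rRNA-depleted and sequenced in paired ends. Per the labels and methods, the authors trimmed reads with fastp, aligned them to mm9 with HISAT2, quantified genes with StringTie and compared groups with DESeq2; the annotation version is not given in the sources used here. The deposited table holds estimated counts as whole numbers for 51609 genes and 12 libraries, so depth was 65879529 to 82850098 per library. Of its IDs 1672 start with ENSMUSG00002, which is later than GENCODE vM1. Symbols and coordinates came from GENCODE vM1 on NCBIM37, and 28677 rows had one.

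The counts were tested with edgeR 4.0.16 (TMM, filterByExpr, robust quasi-likelihood F test, 4 groups in 1 model) in R 4.3.3, and p-values were Benjamini-Hochberg adjusted over 17652 genes, with a threshold of 0.05. The code was tested on simulated data. The study describes the libraries as biological replicates, so p-values rest on the spread between livers within groups. In the main fit that spread was estimated jointly over the 4 groups, so libraries outside a comparison also entered its p-values. Alternatives were DESeq2 1.42.0, DESeq2 size factors, an unfiltered fit, a minimum of 10 counts per library, fits of the compared groups alone, a replicate block, Y-linked share as covariate, limma-voom 3.58.1 with sample weights, and leaving out each library. Members with a group mean of 5 CPM, a call, or a listed sinusoidal, canalicular, basolateral or sex-dependent role were named, with genes of the marker and regulator lists. The members and lists were chosen with earlier results of these data known; the acute-phase and targeted-gene lists and the fit without wild-type untreated library 3 and wild-type DSS-treated library 2 were added after seeing the data. No library was left out of the reported values, and no 2 libraries of a group agreed within sampling noise. Values of 2 members are not reported here, though counts and sums over all members include them.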

Additional observations from a re-analysis of the deposited data

Results flagged for a closer look

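The response of Slc22a26 to DSS differed between the genotypes by the interaction test, at 10.64 on the log2 scale in labelled knockout minus wild type (SE 1.36, edgeR adjusted p = 0.0150). It was no longer called in 2 of the 12 fits without one library, with adjusted p of 0.0740 without labelled knockout untreated library 2 and 0.0534 without labelled knockout DSS-treated library 1. It was lower after DSS in 3 of 3 wild-type libraries and higher in 3 of 3 labelled knockout libraries than in every untreated library of the same genotype. The libraries behind the rise were those with Xist and without Y-linked transcripts, so genotype, treatment and sex cannot be told apart for it. Listed female-biased liver genes summed to 224 to 843 CPM without and 2586 to 5330 CPM with DSS in the labelled knockout. All 5 tested had estimates above 0 and 1 passed in edgeR, where 4.57% of all genes were called higher. Of 6 tested male-biased genes 4 fell, where 2.46% of all genes were called lower. In wild type all 5 female-biased estimates were below 0 and 0 passed. Their sum there was 198, 373 and 4515 CPM without and 96.3, 7.75 and 46.0 CPM with DSS. The value of 4515 CPM was in untreated library 3, which had both Xist and Y-linked transcripts. Groups of 3 libraries were too small for a test of single outlying libraries. The wild-type DSS-treated library 2 stood apart by the values given above, and each library was left out in turn.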

How the results depend on the processing

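The number of members called depended on the setting. For DSS in wild type it went from 0 to 6 with the DESeq2 Wald test, to 1 with at least 10 counts in every library, 1 with the replicate block and 1 with Y-linked share as covariate (Slc22a26 each time), to 2 without wild-type untreated library 3 and wild-type DSS-treated library 2 (a fit chosen after seeing the data, Abcg5 and Abcg8), and to 0 to 1 without single libraries. For DSS in the labelled knockout it went from 6 to 13 with DESeq2, 10 with the compared groups alone, 0 with the covariate, 12 without that pair of libraries, and 0 (labelled knockout untreated library 2) to 13 (wild-type DSS-treated library 2) without single libraries. The calls over all genes moved likewise there, from 1240 to 2375, 1647, 6 and 1777 in the first 4 of these fits, so these moves are not particular to the members. For the untreated genotypes it went from 0 to 2 with DESeq2 and 1 with the compared groups alone (Abcc9). For genotypes under DSS it went from 1 to 5 with DESeq2, to 0 without a filter, with the covariate and with limma-voom weights, to 2 without the pair, and to 0 to 2 without single libraries. For the interaction it went from 1 to 7 with DESeq2, 0 with the covariate, 2 without the pair, and 0 to 2 without single libraries. Calls over all genes are given in the same order, apart from fits without single libraries. They went from 121 to 868, 172, 119, 65 and 100 for DSS in wild type, and from 11 to 341 and 64 for untreated genotypes. For genotypes under DSS they went from 59 to 601, 63, 6, 29 and 58, and for the interaction from 72 to 718, 4 and 48. Whether replicate numbers pair the samples was not settled (correlations from -0.07 to 0.21, and 7 of 12 libraries correlated best with their own number). The replicate block left 5 calls for DSS in the labelled knockout. Over all genes it gave 128 calls against 72 for the interaction, 33 against 11 for untreated genotypes and 66 against 59 for genotypes under DSS. For DSS it gave 119 against 121 in wild type and 1164 against 1240 in the labelled knockout. Median log2 fold changes of uptake members without the pair were -0.035 for DSS in wild type, -0.0040 for untreated genotypes, -0.34 for genotypes under DSS and -0.36 for the interaction, which was -0.012 with the covariate. The export medians were -0.30 for genotypes under DSS without the pair and -0.27 for the interaction with the covariate. Without single libraries the uptake medians ran from -0.26 to 0.047 for DSS in wild type, -0.52 to -0.41 for DSS in the labelled knockout, -0.019 to 0.14 untreated, -0.35 to -0.18 under DSS and -0.40 to -0.12 for the interaction. The export medians ran from -0.075 to 0.079 for DSS in wild type, -0.25 to -0.13 for DSS in the labelled knockout, 0.11 to 0.24 untreated, -0.31 to -0.0075 under DSS and -0.32 to 0.021 for the interaction. No called estimate of a named member changed sign, and 125 values of results that were not called did (Slco1a1 after DSS in wild type is 0.19 without wild-type DSS-treated library 2). The cause of these changes was not tested, apart from fewer samples or genes entering a fit. Over all alternatives, 109 values of called members kept their call and 58 lost it. Members under 1 CPM are limited by depth.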
